A study of Mus musculus with 36 samples.

Results

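The question addressed here was which genes change differently on alloreactive activation when CD4 T cells lack HP1γ (HP1g in the sample names, encoded by Cbx3). It was read as a difference of differences, namely the log2 change from naive to grafted cells in knockout (KO) cells minus the same change in wild-type (WT) cells. A positive value means that the KO change was the higher of the pair, and a negative value that it was the lower. The comparison used 12 of the 36 libraries of the series, 3 in each of 4 groups, and 17024 genes of the 56748 in the count table passed the filter on low counts.

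Naive libraries were made from splenic CD4+ T cells of mice 6 to 12 weeks old, enriched for naive (CD44low) cells by negative selection. The KO mice carried a floxed Hp1g allele and a Cd4-cre transgene, which is active from the thymus on, and the WT mice were littermates with the floxed allele and no cre. Both were on a mixed 129/Sv and C57BL/6 background. Tconv libraries (conventional T cells) were made from such naive cells, WT or KO, injected without regulatory T cells (Treg) into lethally irradiated hosts (C57BL/6 J mice or CD45.1+ B6 mice) together with bone marrow of C57BL/6 J and of semi-allogeneic B6D2F1 mice, and sorted from the spleen as CD4+ TCR Vβ6+ cells 3 weeks later. The labels do not say which libraries came from separate mice, so p-values measure the spread between libraries. Naive and Tconv libraries carry separate series of library names, so cell condition and library set cannot be told apart, while each KO against WT contrast lies within a set.

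HP1 proteins are chromatin readers that bind histone H3 methylated at lysine 9 and help to keep heterochromatin compact. HP1γ, the isoform encoded by Cbx3, is also found along transcribed genes and in a variant Polycomb complex, PRC1.6. When a naive CD4 T cell meets its antigen it switches on immediate early genes, divides, changes its homing receptors and takes on an effector programme, and chromatin of lineage genes is remodelled along the way.

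The 12 libraries held 38191660 to 56651278 counts each, so that 3 counts, the detection floor used here, correspond to 0.0516 to 0.0764 CPM (counts scaled for library size). The condition labels matched Cd44, a marker of antigen-experienced cells, which was at 35.5 to 52.5 CPM in naive and at 270 to 374 CPM in Tconv libraries. Trbv19, the segment of Vβ6, took 8.73 to 9.69% of Trbv counts in naive and 68.3 to 87.8% in Tconv libraries, while Cd8a did not exceed 0.902 CPM. Libraries that stand apart were WT Naive 2, and both Tconv libraries numbered 1. The erythroid marker sum was 4900 CPM in WT Tconv 1 and 3320 CPM in KO Tconv 1 against 75.7 to 313 CPM in the other Tconv libraries, and the myeloid sum was 659 and 169 CPM against 31.4 to 131 CPM. Values without these libraries are given where they turn the sign of a list median or of the difference of differences of a gene, or move it by over 1.5 times.

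Cbx3, the targeted gene, was at 104, 200 and 113 CPM in WT Naive, at 67.0, 74.8 and 62.9 CPM in KO Naive, at 83.2, 85.9 and 104 CPM in WT Tconv and at 61.9, 67.2 and 72.2 CPM in KO Tconv libraries. In each condition the KO values were all under the WT values. The log2 KO minus WT difference was -1.03 in naive cells and -0.44 in Tconv, and neither passed the test (edgeR quasi-likelihood, Benjamini-Hochberg adjusted p = 0.322 and 0.648). With DESeq2 the naive difference was -0.99 at an adjusted p of 0.0143, just short of the threshold on the fold, and that of Tconv -0.44 (adjusted p = 0.602). Counts are summed over the whole gene, so reads from any exon left in the deleted allele are included. At the protein level the study reported, from western blots of naive CD4+ T cells, an almost complete loss of HP1γ in the KO mice. The difference of differences was 0.59 for Cbx3, 0.60 for Cbx1 (HP1β) and 0.74 for Cbx5 (HP1α), none of which passed the test (adjusted p = 0.63, 0.633 and 0.631). WT Naive 2, at 200 CPM of Cbx3, set much of the first pair of values, which were 0.21 each without it and 0.21 and 0.25 without the 3 libraries that stand apart. Of the 118 tested genes within 10 Mb of Cbx3, 0 were called for the interaction by edgeR or by DESeq2, and 15 were at an unadjusted edgeR p under 0.05.

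Activation changed many genes in either genotype. Tconv differed from naive cells in 4300 genes in WT (25.3% of those tested, with 2696 or 15.8% higher and 1604 or 9.42% lower) and in 3961 genes in KO (23.3%, with 2774 or 16.3% higher and 1187 or 6.97% lower), at an adjusted p under 0.05 and a log2 change above 1 in size. Across genes, the log2 changes of the 2 genotypes had a Pearson r of 0.891, given as a description over genes that share libraries. KO and WT differed in 3 genes in naive cells (0.0176%) and in 34 genes in Tconv (0.2%), and DESeq2 called 35 (0.211%) and 257 (1.4%). The 3 genes of naive cells were Casp1, Gm19951 and the unnamed gene ENSMUSG00000095742 (log2 KO minus WT -4.23, adjusted p = 0.0135, at 0.874 to 1.44 CPM in WT and at most 0.116 CPM in KO Naive libraries), whose interaction did not pass (3.72, adjusted p = 0.0917). With the same thresholds the difference of differences itself passed in 4 genes (0.0235%), of which Casp1, Myo5b and Gm50287 were higher (0.0176%) and Gm19951 was lower (0.00587%). In all, 1344 genes (7.89%) were at an unadjusted p under 0.05. Casp1 is named by the rule for named genes, and Myo5b, Gm50287 and Gm19951 were named after their values were seen. In bulk libraries such as these, fewer cells of a type and less RNA per cell cannot be told apart.

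Casp1 encodes the inflammasome protease that matures interleukin-1β and interleukin-18. It lies at chr9:5298508-5307290 (GRCm39, plus strand). Its level was 9.0, 11.4 and 6.57 CPM in WT Naive libraries and 3.54, 2.61 and 2.62 CPM in KO Naive libraries. In Tconv it was 134, 144 and 163 CPM in WT and 171, 186 and 176 CPM in KO. KO values were thus all below WT in naive cells and all above WT in Tconv, without overlap in either condition. Activation raised Casp1 by 4.03 on the log2 scale in WT and by 5.92 in KO, a difference of 1.89 ± 0.27 (SE, edgeR adjusted p = 0.0467). The naive side carried most of it, with a KO minus WT difference of -1.61 in naive cells (adjusted p = 0.0135) and 0.27 in Tconv (adjusted p = 0.832). A lncRNA gene on the other strand, Gm67740, overlaps Casp1, and the kit keeps no strand.

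Casp4, the sensor of cytosolic lipopolysaccharide known in mice as caspase-11, is the next gene on the same strand at chr9:5308828-5336783. It was at 3.25, 3.17 and 1.63 CPM in WT Naive, 0.739, 0.879 and 0.371 CPM in KO Naive, 30.3, 46.5 and 46.7 CPM in WT Tconv and 42.5, 58.4 and 50.0 CPM in KO Tconv libraries. The naive groups did not overlap, and the Tconv groups did. Its difference of differences, 2.31 ± 0.44, was larger than that of Casp1 but did not pass the test with edgeR (adjusted p = 0.193), while DESeq2 gave an adjusted p of 0.000376. The 250 bases before a RefSeq start of each gene (build GRCm38.p6, plus strand) are shown. Both neighbours were lower in KO than in WT Naive libraries and higher after activation in both genotypes. Capitals mark matches to the NF-kB consensus, read on the strand shown only, which was found in 7.14% of the promoters of 10815 tested genes. Casp1 has no match to it, nor to AP-1, CRE, GAS, ISRE-like or CArG box letters, in this window at chr9:5298267-5298516. Casp4 has overlapping matches in 1 stretch of its window at chr9:5308599-5308848. The window of another listed RefSeq start of Casp4, at chr9:5308610-5308859, holds the same stretch.

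Casp1: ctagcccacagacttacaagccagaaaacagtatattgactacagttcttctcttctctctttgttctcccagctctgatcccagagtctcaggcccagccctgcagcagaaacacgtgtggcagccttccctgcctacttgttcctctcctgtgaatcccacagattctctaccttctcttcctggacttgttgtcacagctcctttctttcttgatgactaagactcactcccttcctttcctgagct
Casp4: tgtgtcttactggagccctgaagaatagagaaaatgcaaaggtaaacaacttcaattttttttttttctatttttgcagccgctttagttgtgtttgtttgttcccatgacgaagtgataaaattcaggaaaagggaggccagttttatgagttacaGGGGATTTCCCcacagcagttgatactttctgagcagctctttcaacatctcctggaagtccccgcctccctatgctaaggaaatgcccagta

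Gm19951, a lncRNA gene at chr12:99609334-99613482, was higher in KO Naive libraries than in any library of the other 3 groups. It was at 2.91, 4.86 and 3.29 CPM in WT Naive and at 32.5, 23.6 and 20.9 CPM in KO Naive libraries. In Tconv it was at 6.43, 8.09 and 6.64 CPM in WT and at 4.06, 2.63 and 6.47 CPM in KO. The difference of differences was -3.48 ± 0.45 (edgeR adjusted p = 0.024), and the naive KO minus WT difference was 2.80 (adjusted p = 0.0135). The log2 change on activation was 0.93 in WT and -2.55 in KO.

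Gm50287, a lncRNA gene at chr19:58080246-58084463, and Myo5b, which encodes a motor protein of recycling endosomes, showed the converse pattern. Gm50287 was at 1.97, 2.53 and 1.94 CPM in WT Naive, 1.96, 2.29 and 2.40 CPM in KO Naive, 0.503, 0.592 and 0.564 CPM in WT Tconv and 3.13, 3.85 and 4.30 CPM in KO Tconv libraries. Naive genotypes overlapped and Tconv genotypes did not, and the difference of differences was 2.71 ± 0.35 (edgeR adjusted p = 0.024). It overlaps the protein-coding gene Atrnl1 on the other strand, and their reads cannot be told apart. Myo5b was at 0.340, 0.292 and 0.382 CPM in WT Naive, 0.258, 0.277 and 0.350 CPM in KO Naive and 1.36, 0.856 and 0.838 CPM in KO Tconv libraries. WT Tconv libraries held 0, 1 and 1 counts of it against 73, 40 and 39 in KO Tconv, so the fitted value of 6.16 ± 0.77 (adjusted p = 0.024) depends on the prior count used in the fit. The 4 calls sit near the threshold. Leaving out 1 library at a time, Casp1 and Myo5b passed in 3 of 12 fits each, Gm19951 in 4 and Gm50287 in 2, and no sign changed in these fits. Casp1 passed without WT Naive 2, WT Naive 3 or WT Tconv 3 and did not pass without any other single library. The adjusted p ranged from 0.012 to 0.204 for Casp1, from 0.0309 to 0.113 for Myo5b, from 0.0152 to 0.113 for Gm19951 and from 0.0314 to 0.136 for Gm50287.

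**Figure D1:**
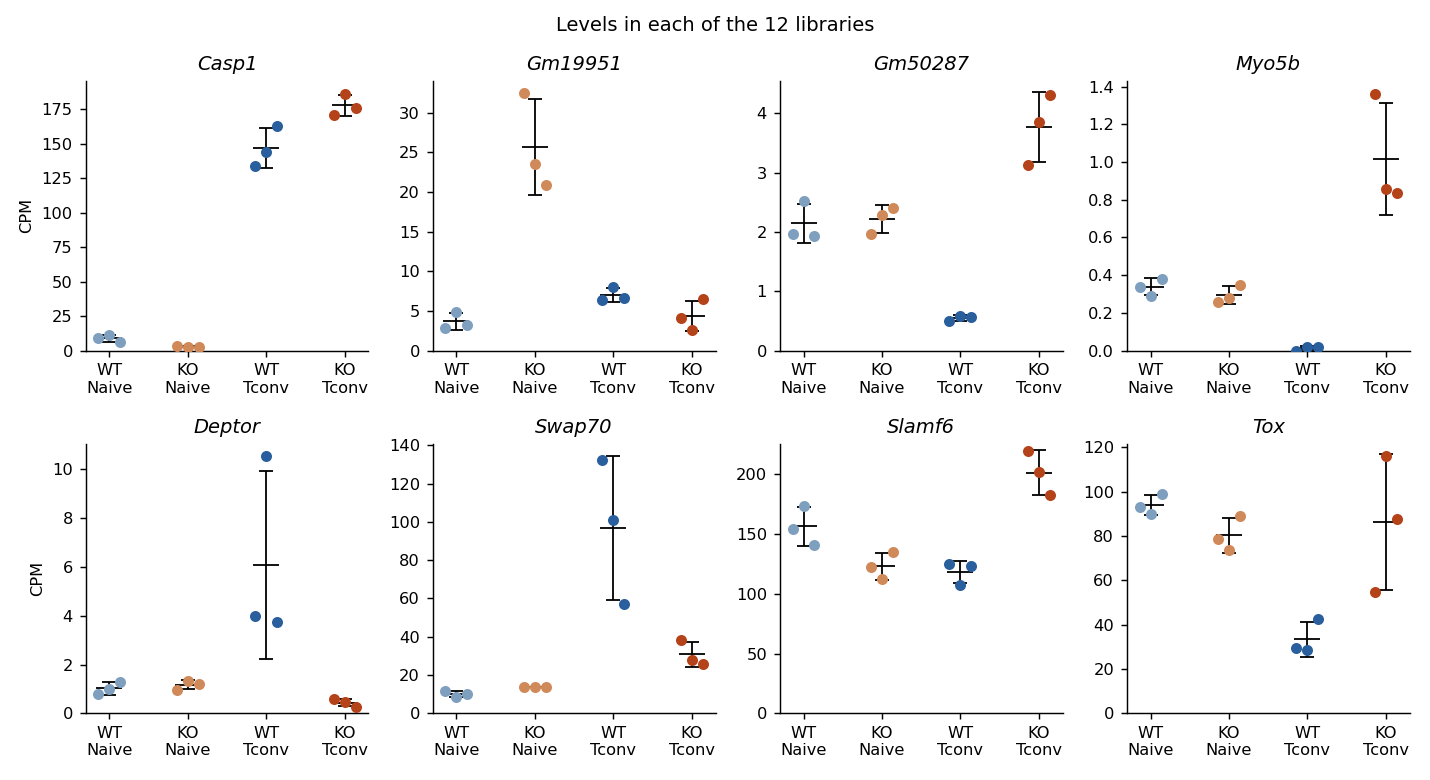
Level of 8 genes in each of the 12 libraries (CPM, linear axis from 0, points are libraries, bars are mean ± SD of 3), by genotype and condition. Casp1 was lower in KO than in WT only on the naive side, at 2.61 to 3.54 against 6.57 to 11.4 CPM, while Deptor, at 0.279 to 0.578 against 3.72 to 10.5 CPM, and Swap70 were lower in KO only on the Tconv side.

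By the naming rule, the next genes in each direction were those with the lowest unadjusted p among genes at 5 CPM or more, with a log2 value above 1 in size. These 11 higher and 12 lower genes were not called by edgeR, with adjusted p of up to 0.2. DESeq2, the tool of the study, gave all 24 an adjusted p under 0.05, and called 103 of 17149 genes (0.601%), 54 higher (0.315%) and 49 lower (0.286%).

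The higher genes of the rule included Slamf6 and Cd27, receptors on the lymphocyte surface. Slamf6, a SLAM family receptor, was at 154, 174 and 141 CPM in WT Naive and at 122, 112 and 135 CPM in KO Naive libraries. In Tconv it was at 124, 107 and 123 CPM in WT and at 219, 202 and 182 CPM in KO. KO libraries were below WT in naive cells and above them in Tconv, again without overlap (1.11 ± 0.18, edgeR adjusted p = 0.0917). Cd27, a costimulator of the TNF receptor family, went from 340, 465 and 318 CPM to 81.4, 64.1 and 69.2 CPM in WT and from 330, 303 and 278 CPM to 133, 126 and 117 CPM in KO. It was lower after activation in both genotypes, by 2.39 on the log2 scale in WT and 1.28 in KO as fitted, and the difference was 1.11 ± 0.22 (adjusted p = 0.197). Tox, a chromatin factor of exhausted and follicular T cells that is named here as a gene of the study's text and not by the rule, was at 93.3, 90 and 98.9 CPM in WT Naive, 78.6, 73.6 and 89.1 CPM in KO Naive, 29.3, 28.6 and 42.6 CPM in WT Tconv and 54.9, 116 and 87.9 CPM in KO Tconv libraries. All KO Tconv values were above all WT Tconv values (KO minus WT 1.36, adjusted p = 0.0456), and the difference of differences was 1.59 ± 0.33 (adjusted p = 0.2).

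The other higher genes of the rule had varied roles. Tmie, a part of the mechanotransduction channel of hair cells, was at 33.4 to 42.2 CPM in naive libraries, at 1.55, 1.38 and 2.23 CPM in WT Tconv and at 5.09, 4.88 and 5.78 CPM in KO Tconv libraries (1.6 ± 0.26, adjusted p = 0.0896). Pacsin1, an endocytic adaptor, and Ephx1, microsomal epoxide hydrolase, likewise were naive-cell genes that remained higher in KO Tconv, at 7.71 to 9.77 against 4.52 to 5.07 CPM and at 15.8 to 17.8 against 5.31 to 9.06 CPM. Eea1, a tether of early endosomes, went the other way with activation and reached 44.9, 84.3 and 57.9 CPM in KO Tconv against 24.4, 26.8 and 34.5 CPM in WT Tconv libraries (1.66 ± 0.32, adjusted p = 0.193). Zfp992, a zinc finger gene, stood at 1.24 to 2.30 CPM in naive libraries and WT Tconv alike and at 5.61, 7.59 and 6.70 CPM in KO Tconv libraries (1.90 ± 0.38, adjusted p = 0.197). Cdk5rap1, Arrdc4 and Zc3h12d completed the group with values of 1.57, 1.95 and 1.05. Cd27, Tmie and Ephx1 overlap protein-coding genes on the other strand (Vamp1, Als2cl and Tmem63a).

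Of the 12 lower genes, 9 were higher after activation in both genotypes and 3 in WT alone, and where a gene is higher in both, its negative value means by itself that the KO change was the smaller. Swap70, a regulator of the actin cytoskeleton, was at 11.6, 8.37 and 10.2 CPM in WT Naive and 13.6, 13.8 and 14 CPM in KO Naive libraries. In Tconv it was at 132, 101 and 57.3 CPM in WT and at 38.2, 28.1 and 26 CPM in KO, so that the groups did not overlap (KO minus WT -1.65, adjusted p = 0.0304). The log2 change on activation was 3.27 in WT and 1.16 in KO, and the difference -2.11 ± 0.36 (adjusted p = 0.0917). Rxra, the retinoid X receptor that pairs with many nuclear receptors, was at 3.59 to 6.77 CPM in naive libraries, 60.7, 50.5 and 35.2 CPM in WT Tconv and 17.5, 22.0 and 15.2 CPM in KO Tconv (-1.91 ± 0.32, adjusted p = 0.0917). Epas1, which encodes the hypoxia-inducible factor HIF-2α, was at 28.0, 49.2 and 22.4 CPM in WT Tconv and 8.63, 13.2 and 10.4 CPM in KO Tconv, from 5.39 to 7.54 CPM in naive libraries (-1.84 ± 0.37, adjusted p = 0.197). In each of these genes every KO Tconv library lay below every WT Tconv library.

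Deptor, an inhibitor of the mTOR kinase, had the largest negative value of the 24 (-3.99 ± 0.62, adjusted p = 0.0802). It was at 0.777 to 1.34 CPM in naive libraries of both genotypes, at 4.01, 10.5 and 3.72 CPM in WT Tconv and at 0.578, 0.449 and 0.279 CPM in KO Tconv. It was thus higher after activation in WT and lower in KO. Myo6, an actin motor, was at 35.7 to 43.3 CPM in naive libraries, at 59.2, 61.6 and 30.9 CPM in WT Tconv and at 16.9, 12.6 and 13.3 CPM in KO Tconv libraries (-1.82 ± 0.32, adjusted p = 0.0917). Kctd12, a subunit associated with GABA-B receptors, was the third of this kind, with activation changes of 1.25 in WT and -0.36 in KO.

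Map6, a microtubule stabiliser, differed from these in its side. It was at 0.364, 0.167 and 0.0764 CPM in WT Naive and at 0.705, 0.670 and 0.830 CPM in KO Naive libraries, at 134, 152 and 114 CPM in WT Tconv and at 77.9, 84.0 and 93.8 CPM in KO Tconv. Its difference of differences was -2.50 ± 0.40 (adjusted p = 0.0898), of which a naive KO minus WT difference of 1.84 at levels under 1 CPM made up the larger part. Ptgir, the prostacyclin receptor (-2.42), Cbfa2t3, an ETO family corepressor (-3.02), and Aqp9, a channel for water and glycerol (-2.0), had their difference in Tconv, with KO values of 9.34 to 14.5, 2.11 to 4.16 and 3.29 to 5.95 CPM against WT values of 24.6 to 73.6, 8.09 to 20.1 and 13.6 to 22.6 CPM. Apobr, a receptor of apolipoprotein B, had -1.20 and overlaps protein-coding genes on the other strand.

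The naive and Tconv libraries of the HP1a line share no library with the comparison, and their WT cells give another reading of normal activation. For 17 of the 24 genes the change in HP1a WT cells lay nearer to that of HP1g WT than to that of HP1g KO cells, and for 20 it lay between them. Over all genes it lay nearer to HP1g WT for 41.1% and between the genotypes for 26.5%, and genes chosen for a wide gap between the genotypes leave more room for a value between them. Casp1 was midway, with 4.03 in HP1g WT, 5.92 in HP1g KO and 5.0 in HP1a WT cells. HP1g Tconv grafted with Treg, 5 further libraries (3 WT and 2 KO, without KO library 3, which the study excluded for poor quality), gave a KO minus WT difference of the same sign as in Tconv without Treg for 24 of the 24 genes, against 66.7% of all tested genes. With that library included it was 21 of the 24, against 57.2%. The 24 were chosen for wide differences, which keep their sign more often than small ones, so a share above that of all genes follows in part from the choice. The values over 5 libraries were 1.24 for Cd27 and 0.68 for Slamf6, and -1.90 for Deptor, -1.17 for Rxra and -0.99 for Swap70, and Tox, which is not of the 24, was at 2.55.

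The calls of DESeq2 allow a wider description. A gene was placed on the naive or the Tconv side where the KO minus WT difference in those cells was at least 2 times that in the others in size. Of the 102 DESeq2 calls that are also in the edgeR table, 54 were on the Tconv side (52.9%, against 25.2% of all genes), 18 on the naive side (17.6%, against 40.5%) and 30 were on both. In libraries with Treg, 54 of the 54 Tconv-side genes had a KO minus WT difference of the same sign as in Tconv (73.2% of all Tconv-side genes did), and 10 of the 18 naive-side genes did (55.6%, against 59.9% of all naive-side genes). The called genes of the Tconv side were likewise chosen for wide differences, which keep their sign more often. HP1a WT cells lay nearer to HP1g WT than to HP1g KO cells for 40 of 54 Tconv-side genes (74.1%, against 62.7% of all genes of that side) and 14 of 18 naive-side genes (77.8%, against 23.9%). The called genes were chosen for a wide gap between HP1g WT and KO cells and placed by side from the same values. The shares of all genes are thus not a like baseline. For most naive-side genes HP1a WT cells lay nearer to HP1g KO cells, and the part of WT Naive 2 in this was not tested. Of 48 lower genes, 32 were higher after activation in both genotypes and 15 were higher in WT and lower in KO, and of 54 higher genes 23 were higher after activation in KO and lower in WT. Over all 17024 genes these patterns held for 6755, 1495 and 2157, and the sign of a call favours the last pair by construction. Among 2132 genes that rose with activation in HP1a WT cells, 12 were higher (0.563%) and 27 lower (1.27%) in the interaction, and among 1706 genes that fell there, 17 were higher (0.996%) and 1 was lower (0.0586%). The 12652 genes not called there held 25 higher (0.198%) and 20 lower ones (0.158%). The classes as a whole showed no such split. The median difference of differences was 0.07 over the genes that rose there and 0.10 over those that fell, against 0.08 over all genes. The genes that rose there had a median log2 change on activation of 3.03 in HP1g WT and 3.04 in HP1g KO cells.

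**Figure D2:**
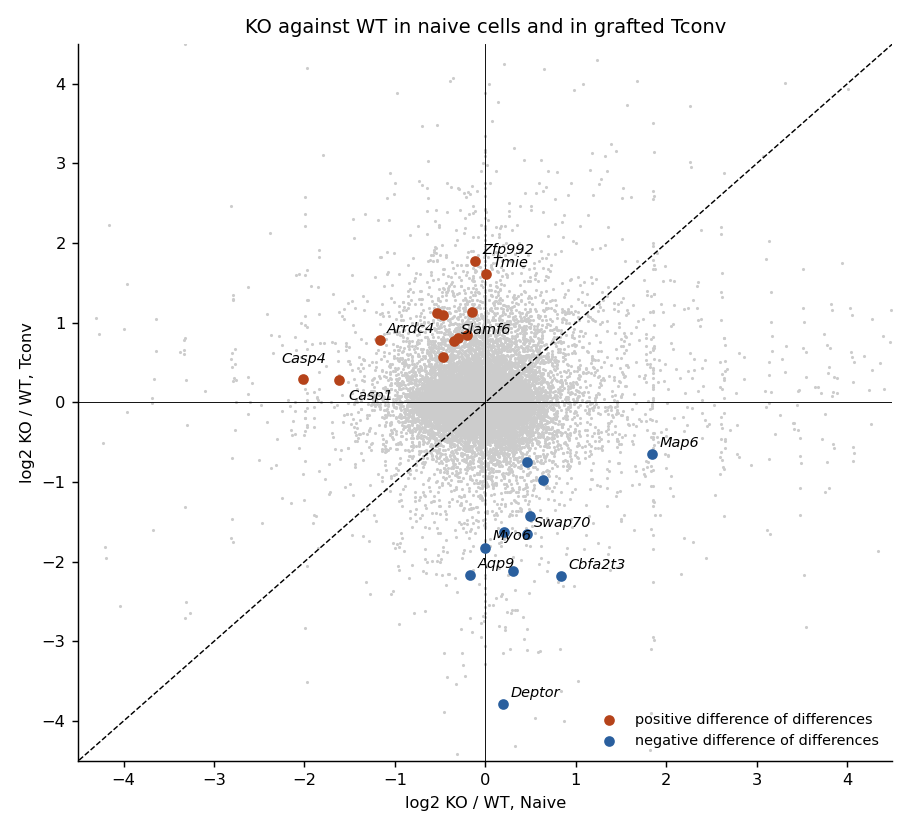
Log2 KO minus WT difference in naive cells (x axis) against that in Tconv (y axis), with tested genes in grey, genes of the naming rule in colour by the sign of their difference of differences, a dashed line where the differences are equal, and genes beyond the axis limits not drawn. Over all 17024 genes the Pearson r was -0.0218, and Casp1 (-1.61 and 0.27) lay out along the naive axis while Deptor (0.19 and -3.79) lay out along the Tconv axis.

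A further gene, 5730507C01Rik, was named after its values were seen. Its counts were 0 in each of the 3 WT Tconv libraries and 559, 697 and 686 in the KO Tconv libraries, or 10.4, 14.9 and 14.7 CPM, with at most 0.086 CPM in any naive library. The edgeR adjusted p was 0.252 and that of DESeq2 7.1e-08. The KO minus WT difference within Tconv passed both fold and edgeR test (adjusted p = 0.00159). The gene was not silent in all WT Tconv of the series. In the HP1a line its log2 change on activation was 5.38 in WT and 1.76 in KO cells.

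Groups of genes were then read as lists, by the number of nominal members in each direction (unadjusted p under 0.05, by which 4.58% of all genes were on the higher and 3.31% on the lower side), and by the median, which was 0.08 over all genes, 55.8% of which were above 0. No list member was called by edgeR, so the values below describe and do not single out genes.

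Immediate early and stress genes, which T cell receptor and stress signals switch on within minutes, had a median of -0.60, with 21 of 23 members below 0, 0 nominal on the higher and 10 on the lower side. Their summed level was 14700, 18600 and 15300 CPM in WT Naive and 15400, 17300 and 15500 CPM in KO Naive libraries. In Tconv it was 27000, 26500 and 19600 CPM in WT and 21900, 15000 and 14700 CPM in KO, so the genotypes overlapped in naive cells and in Tconv by 1 library. Egr1, an immediate early zinc finger factor, was counted not in this list but among the exhaustion and anergy regulators read below. It was at 1770, 1490 and 841 CPM in WT Tconv and 901, 585 and 429 CPM in KO Tconv (-1.63, adjusted p = 0.35). Dusp2, a phosphatase of MAP kinases, was at 1190, 1000 and 959 CPM in WT Tconv and at 917, 691 and 572 CPM in KO Tconv, from 284 to 433 CPM in naive libraries (-0.98, adjusted p = 0.35). Ier3 had -2.69 (adjusted p = 0.263). Without the 3 libraries that stand apart the median was -0.92, and 17 of 23 members were nominal on the lower side, while without the Tconv libraries numbered 1 the number was 8. In Tconv with Treg, 20 of the 23 members were lower in KO than in WT (median -0.44, against 0 over all genes). Not every list kept its direction in those libraries, as given below.

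Some other pathways had medians below 0. Of 16 TGF-beta and SMAD pathway genes, 14 were below 0 (median -0.37) and 4 were nominal. Tgfb1, the ligand, was at 140, 111 and 91.8 CPM in WT Tconv and at 66.7, 79.1 and 83.3 CPM in KO Tconv, with no overlap (-0.80, adjusted p = 0.4, and -0.48 without the 3 libraries), and Smad7, the inhibitory SMAD, had -1.39 (adjusted p = 0.63). Of 24 chemokine receptors and integrins, 17 were below 0 (median -0.41), with 1 nominal on the higher and 6 on the lower side, and the median was -0.16 without the Tconv libraries numbered 1 and -0.20 without the 3 libraries. Of 27 cholesterol and fatty acid synthesis genes, 20 were below 0 (median -0.26), with 3 nominal, among them the sterol synthesis enzyme Lss (-0.78) and Srebf2, the factor that drives the pathway (-0.52). This median came near 0 when libraries were left out, at -0.04 with 15 below 0 without the Tconv libraries numbered 1 and at -0.06 with 17 below 0 without the 3 libraries.

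Helper lineage genes differed among themselves. Of 11 markers of follicular helper T cells, the subset that helps B cells, 10 were above 0 (median 1.04, or 1.11 with groups at 0 counts set to the detection floor) and 5 were nominal, all on the higher side. Their summed level was 271 to 418 CPM in naive libraries, 584, 538 and 582 CPM in WT Tconv and 775, 1030 and 829 CPM in KO Tconv. Cxcr5, the receptor that guides cells to B cell follicles, was at 14.7, 5.68 and 12 CPM in WT Tconv and at 26.7, 33.4 and 29.2 CPM in KO Tconv libraries (1.81 ± 0.43, adjusted p = 0.343). In libraries with Treg, 10 of the 11 were higher in KO than in WT. The nominal members were Slamf6, Cxcr5, Sh2d1a, Pdcd1 and Tox2. Lists share members, and Pdcd1 is counted again among the inhibitory receptors and Tox2 among the exhaustion and anergy regulators. Of 19 Th2 and Th17 genes, 13 were below 0 (median -0.69, and -0.43 over 18 genes without the 3 libraries), with 1 nominal on the higher and 4 on the lower side. Gata3, the Th2 master regulator, was at 544, 425 and 275 CPM in WT Tconv and 223, 198 and 170 CPM in KO Tconv, from 104 to 128 CPM in naive libraries (-1.04, adjusted p = 0.405), and Ccr4, a receptor of Th2 cells, was at 48.2, 35.7 and 31.8 CPM in WT Tconv and 17.4, 24.8 and 28.7 CPM in KO Tconv (-1.66, adjusted p = 0.4, and -0.98 without the 3 libraries). KO Tconv libraries were below WT Tconv libraries without overlap in both genes. The 19 Th1 genes had a median of 0.16, with 2 nominal on the higher and 3 on the lower side, and the median turned to -0.22 without the 3 libraries and was 0.01 without the Tconv libraries numbered 1. Ifng, the Th1 cytokine, was at 417, 537 and 547 CPM in WT Tconv and 455, 554 and 431 CPM in KO Tconv, within 0.262 CPM in naive libraries (-0.31 ± 0.41, adjusted p = 0.787, and -0.72 without the 3 libraries). In the Th1 list of the study, 49 of 72 tested genes were below 0 (median -0.22), with 4 and 12 nominal on the higher and lower side. The study curated that list by hand, with a reference for each gene. It used the list on genes of HP1α KO against WT Tconv with Treg, a comparison that holds none of the libraries compared here.

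Inhibitory receptors had a fitted median of 0.11, with 10 of 16 above 0, 5 nominal on the higher and 1 on the lower side. For 2 of them a group held 0 counts, and with such groups set to the detection floor the median was 0.53. The fitted median was 0.20 without the Tconv libraries numbered 1 and 0.02 without the 3 libraries. Cd200, a membrane glycoprotein, was at 7.10, 6.89 and 12.1 CPM in WT Tconv and at 12.7, 47.1 and 23.5 CPM in KO Tconv (2.14, adjusted p = 0.35). Pdcd1, which encodes PD-1, was at 17.6, 25.6 and 51.9 CPM in WT Tconv and 43.3, 168 and 92.3 CPM in KO Tconv (1.6 ± 0.65, adjusted p = 0.627), and the genotypes overlapped. Lag3 was at 0.852, 1.12 and 3.08 CPM against 1.98, 15.1 and 14.5 CPM (2.83 ± 1.40, adjusted p = 0.63), also with overlap, and Tigit at 31.6, 31.5 and 30.5 CPM against 50.9, 56.7 and 53.4 CPM (0.88 ± 0.39, adjusted p = 0.63). Havcr2 was listed at 0 in all WT Naive libraries, so no fold is given for it, and was at 8.15, 11.5 and 13.4 CPM in WT Tconv and 10.5, 38.2 and 29.4 CPM in KO Tconv. Of 26 exhaustion and anergy regulators, 17 were below 0 (median -0.20), with 6 nominal on either side. The median was -0.12 without the Tconv libraries numbered 1. Without the 3 libraries it turned to 0.05, with 14 above 0, 6 nominal on the higher and 3 on the lower side. Those on the higher side included Tox, and Izumo1r, the folate receptor 4 of anergic cells (1.5, adjusted p = 0.319), and those on the lower side included the immediate early factors Nr4a1 and Egr3. In Tconv with Treg, 20 of the 26 regulators were higher in KO than in WT, the other way from the median over all 12 libraries. The exhaustion list of the study had 62 of 98 tested genes above 0 (median 0.23), with 19 and 8 nominal, and was likewise curated by hand. Its median was 0.40 without the Tconv libraries numbered 1 and 0.15 without the 3 libraries. Il10, which encodes an immunosuppressive cytokine, was at 1.94, 3.88 and 2.40 CPM in WT Tconv and 9.47, 18.0 and 27.3 CPM in KO Tconv without overlap. The KO minus WT difference in Tconv was 2.74 (edgeR adjusted p = 0.0372). With 0 to 3 counts per naive library, however, the difference of differences was poorly set (1.48 ± 1.66, adjusted p = 0.745). Il17a was listed at 0 in all 6 naive libraries and was at 0.921 to 5.40 CPM in WT and 1.57 to 4.66 CPM in KO Tconv. Foxp3, the Treg factor, was at 4.81 to 9.11 CPM in naive libraries, 8.65, 4.14 and 1.27 CPM in WT Tconv and 2.14, 1.86 and 2.38 CPM in KO Tconv (-1.31, adjusted p = 0.63). It was at -0.52 without the Tconv libraries numbered 1 and at -0.73 without the 3 libraries.

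**Figure D3:**
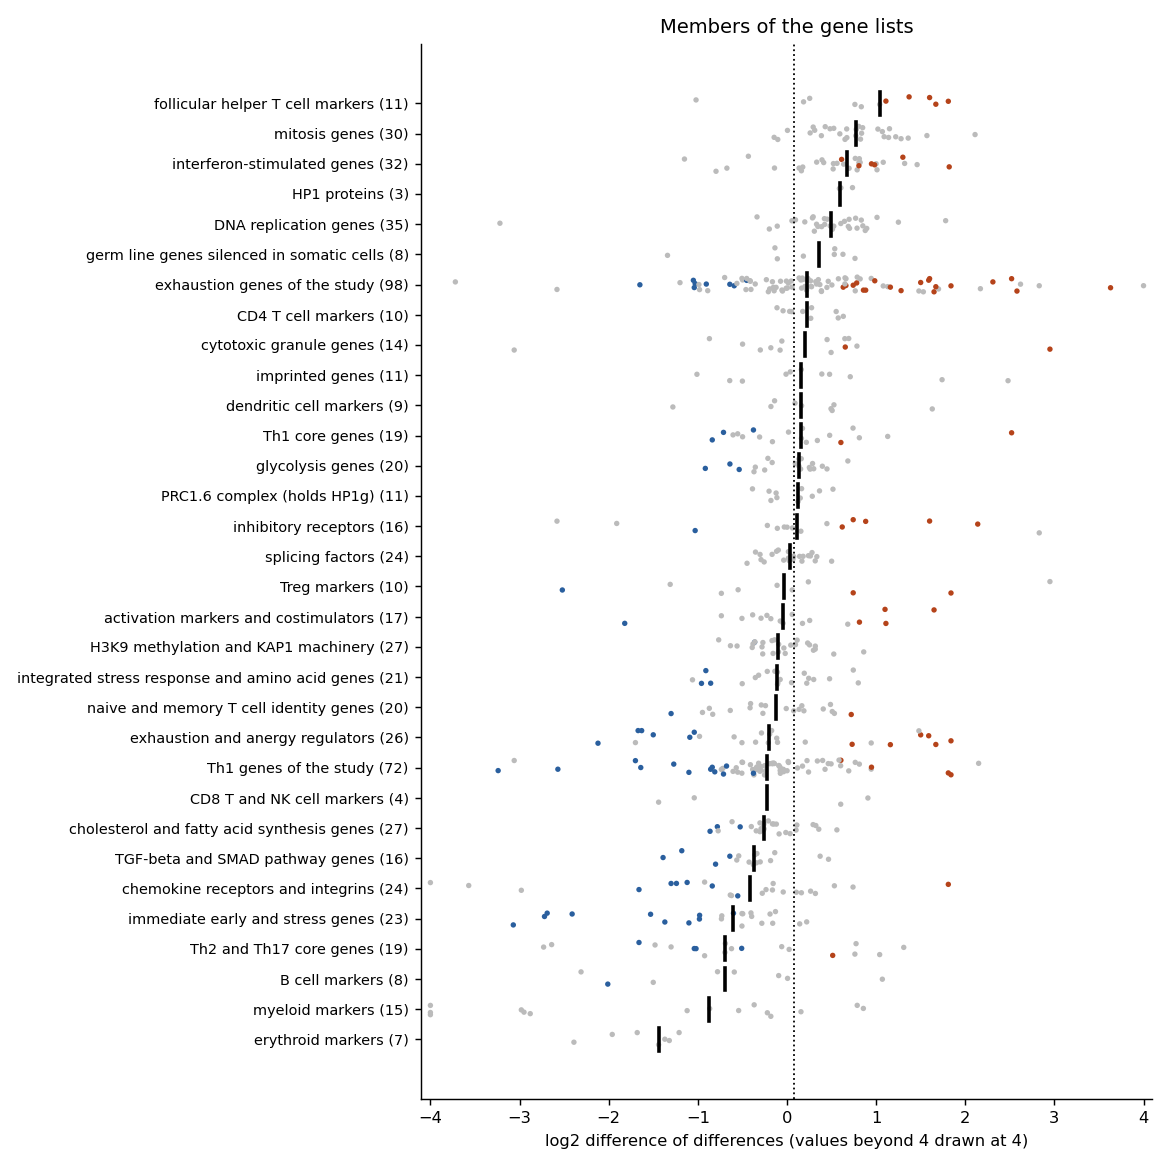
Difference of differences (log2) of each tested member of the gene lists, 1 point per gene, coloured where the unadjusted p was under 0.05, with the median of each list as a bar. Immediate early genes lay mostly below 0 (median -0.60), and mitosis, interferon-stimulated and follicular helper genes mostly above it (0.77, 0.67 and 1.04), against 0.08 over all genes.

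Interferon-stimulated genes, antiviral genes switched on by type I and type II interferon, had 27 of 32 members above 0 (median 0.67), with 6 nominal on the higher and 0 on the lower side. The difference lay in the naive cells, where 27 of the 32 were lower in KO than in WT. The naive median was -0.58, with WT Naive 2 included, while the Tconv median was -0.03. Over all genes the naive median was -0.03, with 7813 of 17024 higher in KO than in WT. The summed level of the list was 3090, 3830 and 2890 CPM in WT Naive and 2330, 2630 and 2290 CPM in KO Naive libraries, without overlap. It was 2140, 2850 and 3230 CPM in WT Tconv and 2150, 3190 and 3600 CPM in KO Tconv libraries. Isg15, a ubiquitin-like protein, was at 10.5, 32.2 and 9.04 CPM in WT Naive and 6.36, 8.79 and 6.86 CPM in KO Naive (1.30, adjusted p = 0.63, and 0.46 without the 3 libraries that stand apart), and Irgm1, an interferon-inducible GTPase, at 175, 240 and 160 CPM and 127, 145 and 117 CPM (0.81, adjusted p = 0.599). Iigp1, another such GTPase, had the largest value of the list (1.82, adjusted p = 0.498). WT Naive 2 had the highest sum. Without the 3 libraries that stand apart the median was 0.24, against 0 over all genes, with 24 of 32 above 0. In Tconv with Treg, 22 of the 32 were lower in KO than in WT. The promoter of Isg15 is shown as the type sequence of the list. It is the 250 bases before the RefSeq start at chr4:156200819-156201068 (GRCm38.p6, minus strand), with matches to the ISRE-like letters GAAANNGAAA, read on both strands, in capitals. Such a match was found in 14 of 24 promoters of the list (58.3%) and in 363 of 10815 promoters of tested genes (3.36%).

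Isg15: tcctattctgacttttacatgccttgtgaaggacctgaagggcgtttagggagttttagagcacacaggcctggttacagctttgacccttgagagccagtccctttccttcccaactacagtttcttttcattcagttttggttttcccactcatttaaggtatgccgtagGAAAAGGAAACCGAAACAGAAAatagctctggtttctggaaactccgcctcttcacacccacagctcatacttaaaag

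Cell cycle genes stood on the higher side together but with a wide spread between libraries. Of 30 mitosis genes 28 were above 0 (median 0.77), and of 35 DNA replication genes 31 (median 0.49), and 0 members of either list were nominal. The mitosis sum was 662 to 876 CPM in naive libraries, 820, 1120 and 1910 CPM in WT Tconv and 687, 3530 and 3060 CPM in KO Tconv. KO Tconv 1 was thus the lowest and the other KO libraries were the highest of the 6 Tconv libraries. Without the Tconv libraries numbered 1, which also held the highest erythroid sums, the median was 0.95, and 16 mitosis and 17 DNA replication genes were nominal on the higher side. In libraries with Treg, 30 of the 30 mitosis genes were higher in KO than in WT. The part of these libraries in the result was not tested further.

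**Figure D4:**
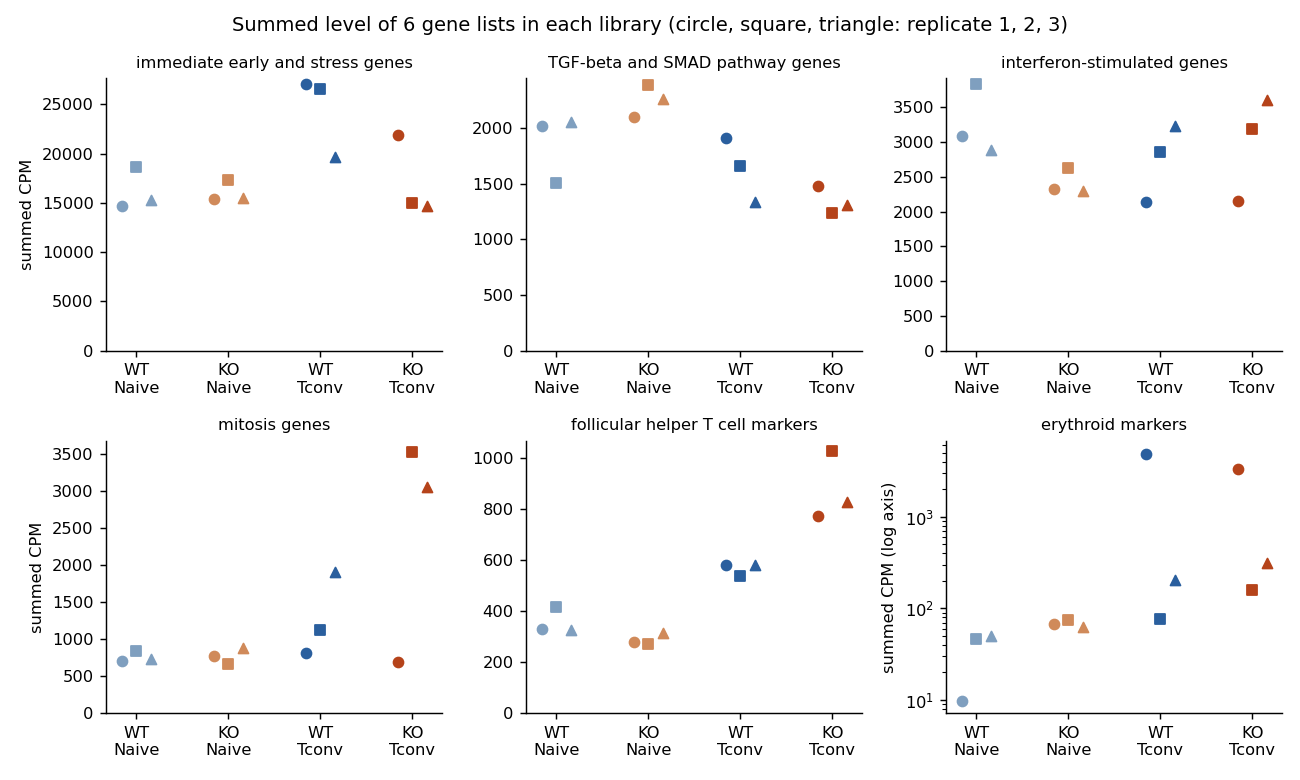
Summed level (CPM) of 6 gene lists in each of the 12 libraries, by genotype and condition, with marker shape by library number and a log axis for erythroid markers. Interferon-stimulated genes were lower in all KO Naive libraries (2290 to 2630 CPM) than in WT Naive libraries (2890 to 3830 CPM), and the mitosis sum of KO Tconv ranged from 687 to 3530 CPM.

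Few genes of the chromatin pathways of HP1γ were nominal. Of 27 H3K9 methylation and KAP1 genes, 0 were nominal on the higher and 1 on the lower side (median -0.10), and of 11 members of the PRC1.6 complex 0 were (median 0.12). Germ line genes that such complexes silence passed the filter on low counts in 8 of 30 cases (median 0.36) and imprinted genes in 11 of 28 (median 0.16), with 0 nominal in either list. Splicing factors (median 0.03), naive and memory identity genes (-0.12, with 1 nominal on each side), glycolysis genes (0.13, with 3 on the lower side), activation markers (-0.04, with 4 on the higher and 1 on the lower side), cytotoxic granule genes (0.20, with 2 on the higher side) and genes of the integrated stress response (-0.11, with 3 on the lower side) had medians within 0.2 of 0. Without the 3 libraries the medians of the lists of this paragraph ranged from -0.23 to 0.44, and without the Tconv libraries numbered 1 from -0.23 to 0.38. In the first of these settings the medians of H3K9 methylation (0.01), PRC1.6 (-0.05), splicing (-0.15) and cytotoxic granule genes (-0.13) turned their sign. In the second, those of activation markers (0.06), splicing (-0.10) and cytotoxic granule genes (-0.03) did.

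Markers of other cells were read in the same way. The 7 erythroid markers had a median of -1.44 and the 15 myeloid markers of -0.87, with 0 of either nominal, and the B cell markers -0.69 with 1 of 8 on the lower side, at sums of 3.36 to 12.9 CPM. Medians were -0.22 for CD8 T and NK cell, 0.16 for dendritic cell, -0.03 for Treg and 0.22 for CD4 T cell markers. Without the Tconv libraries numbered 1 the medians were -0.17 for erythroid, -0.02 for myeloid and -1.42 for B cell markers, and without the 3 libraries -0.54, 0.26 and -1.36. Treg markers were then at -0.21 (0.07 without the Tconv libraries numbered 1), dendritic cell markers at 0.07 and CD4 T cell markers at 0.02, and with groups at 0 counts set to the detection floor the myeloid median over all 12 libraries was -0.37. In Tconv with Treg, 7 of 7 erythroid and 12 of 13 myeloid markers were higher in KO than in WT, the other way from their medians over all 12 libraries. The part of these cells in the results above was not tested, other than by leaving out the libraries with the highest sums.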

How the data were processed

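RNA of CD4 T cells was sequenced with SMART-Seq v4 PLUS libraries, which keep no strand. The authors aligned reads to GRCm39 (STAR) and estimated expected counts per gene with Salmon, as the labels and methods state, and deposited them as 1 table, in which 82.9% of values are whole. Expected counts were rounded here. Genes kept by filterByExpr were fitted with edgeR 4.0.16 (TMM, robust quasi-likelihood, R 4.3.3), 1 mean per group over 12 libraries, with Benjamini-Hochberg adjustment over 17024 genes, and called at an adjusted p under 0.05 and a log2 value above 1 in size. CPM use TMM library sizes. No 2 replicates were alike (12 pairs compared). DESeq2 1.42.0, RLE factors, no filter, no fold threshold, 17 of the 18 libraries of the line (KO library 3 with Treg was excluded by the study for poor quality), replicate blocks and libraries left out were the alternatives. The scripts' test was checked on simulated data. Members and the 32 gene lists were chosen with earlier results of these data known. Named were the HP1 genes, 12 genes in each direction (called first, then lowest unadjusted p, at 5 CPM or more in a group, without predicted genes), up to 2 members per list and genes of the study's text. Positions come from GENCODE on GRCm39 and promoters from RefSeq on GRCm38.p6. Of the named genes, 1 is not reported here.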

Additional observations from a re-analysis of the deposited data

Results flagged for a closer look

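In 4 genes the effect of activation differed between the genotypes by the interaction term of the edgeR fit, the test of the difference itself. The values on the log2 scale were 6.16 for Myo5b, 1.89 for Casp1, -3.48 for Gm19951 and 2.71 for Gm50287, with adjusted p of 0.024, 0.0467, 0.024 and 0.024. Myo5b rests on 0, 1 and 1 counts in WT Tconv libraries. In the fit of 17 of the 18 libraries of the HP1g line, which leaves out KO library 3 with Treg as the study did, Casp1 was at 1.85 (adjusted p = 0.0358) and Gm19951 at -3.52 (adjusted p = 0.0358), while Myo5b was at 6.14 with an adjusted p of 0.0606.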

How the results depend on the processing

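The count of interaction calls, 4 with edgeR, was 103 with DESeq2, 32 without the filter on low counts (of 32138 genes), 1 without both Tconv libraries numbered 1 (none of the 4 calls) and 63 without these and WT Naive 2 (33 higher and 30 lower, 4 shared with the 4 calls), the last pair of settings chosen after seeing the data. Leaving out 1 library gave 0 to 12 calls, 12 without WT Tconv 3, 6 without WT Naive 2 and 0 without each KO Naive library, WT Tconv 1 or 2, or KO Tconv 1. RLE factors and no fold threshold gave 4 each and the 17 libraries of the line 3. Deviations of equally numbered libraries of the same condition correlated from -0.144 to 0.54, above 0.1 in 4 of 6 pairs, and 6 of 12 libraries were nearest to the library of their own number. Since neither the labels nor every pair tie the numbers together, they were not taken as pairs. With the replicate block the interaction count was 0 (lowest adjusted p 0.0724, 1289 genes at an unadjusted p under 0.05) and with the block within condition 1, which is none of the 4. Activation counts without a fold threshold were 6668 in WT and 5999 in KO, and ranged from 3719 to 4542 and from 3515 to 4334 over libraries left out. KO against WT in naive cells, 3 calls, gave 35 with DESeq2, 17 without the filter, 5 with the block within condition, 6 without the 3 libraries and 0 to 4 over libraries left out (0 without KO Naive 1 or 2). In Tconv, 34 calls, the counts were 257, 134, 87 and 271 in the same order, 20 with the 17 libraries and 6 to 83 over libraries left out (83 without KO Tconv 1, 57 without WT Tconv 3, 6 without KO Tconv 3). The cause of these moves was not tested. Il17a, at -0.06, was at 0.10 with DESeq2, 0.08 with the replicate block, 0.49 with either set of libraries left out and from -0.50 to 0.51 with 1 library left out, and Il10, at 1.48, ranged from -1.33 to 2.05. No other of the 78 named genes changed sign, and 11 moved by over 1.5 times without the 3 libraries. Of 33 medians (32 lists and all genes), 18 moved by more than the spread between libraries in that setting and 8 without the Tconv libraries numbered 1. RLE factors kept the call of all 78, the replicate block lost 4 calls, and DESeq2 added 35. With 3 libraries per group and a detection floor of 3 counts, genes below about 1 CPM are set by few counts.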
